A study of Drosophila melanogaster with 14 samples.

Results

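The insertions described here are those that carry a Doc name in the deposited lists of transposable element (TE) insertions of a *Drosophila melanogaster* line. Every record whose family name begins with Doc was taken, in all 14 libraries, which gave 843 of 20426 records (4.13%) under 4 of the 123 family names. These were Doc with 583 records, Doc2-element with 123, Doc3-element with 86 and Doc4-element with 51. The last 3 are called Doc2, Doc3 and Doc4 below.

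The study asked what a transient loss of Piwi from the somatic cells of the ovary does to TEs and to the genomes of the progeny. Genomic DNA was sequenced, and insertions absent from the dm6 reference were listed with their supporting reads, that is, the reads that span or flank an insertion point. There were 12 libraries of single adult piwi-sKD flies (piwi somatic knockdown), 1 piwi-sKD pool and 1 no-KD pool. All groups had the same genotype, so the controls carried the hairpin too. In a w background it combines tj-GAL4 with tubP-GAL80[ts] and sh-piwi. The traffic jam promoter drives GAL4 in follicle cells, GAL4 turns on a short hairpin against *piwi*, and a temperature-sensitive GAL80 holds GAL4 back. Per the labels, piwi-sKD flies spent the last 5 days at 25°C after growth at 20°C, and no-KD flies stayed at 20°C throughout. The no-KD pool was made of embryos of 3 to 17 h. The piwi-sKD pool is labelled as adult flies, whereas the methods describe it as embryos of a later generation. The methods also place the single flies in that later generation, so the shift named in their labels applied to ancestors. The labels do not state the sex of the flies.

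Doc elements are LINEs, retrotransposons without long terminal repeats, and belong to the jockey group. Such elements make an RNA copy, carry it back to the nucleus with their own protein, nick the target DNA and reverse transcribe the RNA in place. The copying often stops early, so that many copies lack the 5′ end. They have no envelope gene, and their repression in the ovary is mostly a matter of the germline, where Piwi works with other proteins of its clade.

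Each pool was 1 library, so tests on the pools compared 2 libraries and not 2 conditions. Pools were read at 100 nt and flies at 125 nt, at different sites, so that pool and fly cannot be told apart from site and read length. The flies had 537 to 1307 insertions each, with 1774 to 5901 supporting reads, and flies 12, 10 and 9 had the fewest insertions. The lists of the pools held 5096 insertions (47733 reads) for piwi-sKD and 4356 (38580 reads) for no-KD. Supporting reads can be copies of one molecule, so that intervals hold for counting error alone. One insertion could also be listed as several records. Intervals and Fisher's tests on records of the pools treat these as independent, so they understate the uncertainty.

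Doc was the most numerous of the 4 names in every library. In the flies it had 14 insertions at the lowest, 32 at the median and 40 at the highest, or 29.9 ± 7.7 per fly (SD, n = 12). It had 117 insertions with 888 reads in the piwi-sKD pool, against 107 with 817 reads in the no-KD pool. Doc thus took 3.26% ± 0.331 of all insertions per fly (SD, n = 12), 2.3% of the piwi-sKD pool (Wilson 95% interval 1.92 to 2.74) and 2.46% of the no-KD pool (2.04 to 2.96), and the intervals of the pools overlapped. Fly 12, with the fewest insertions of all families, also had the fewest Doc insertions.

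The other names were rarer, and their order changed between flies and pools. Doc2 had 3 to 10 insertions per fly with a median of 6, and 24 in the piwi-sKD pool against 26 in the no-KD pool. Doc3 had 0 to 4 per fly with a median of 2, and was listed in 9 of the 12 flies. Its counts in the pools were 34 in the piwi-sKD pool, against 30 in the no-KD pool, so that Doc3 outnumbered Doc2 in both pools while Doc2 outnumbered Doc3 over the flies, with 73 records against 22. Doc4 had 1 to 5 insertions per fly with a median of 2.5, and 14 in the piwi-sKD pool against 9 in the no-KD pool.

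**Figure D1:**
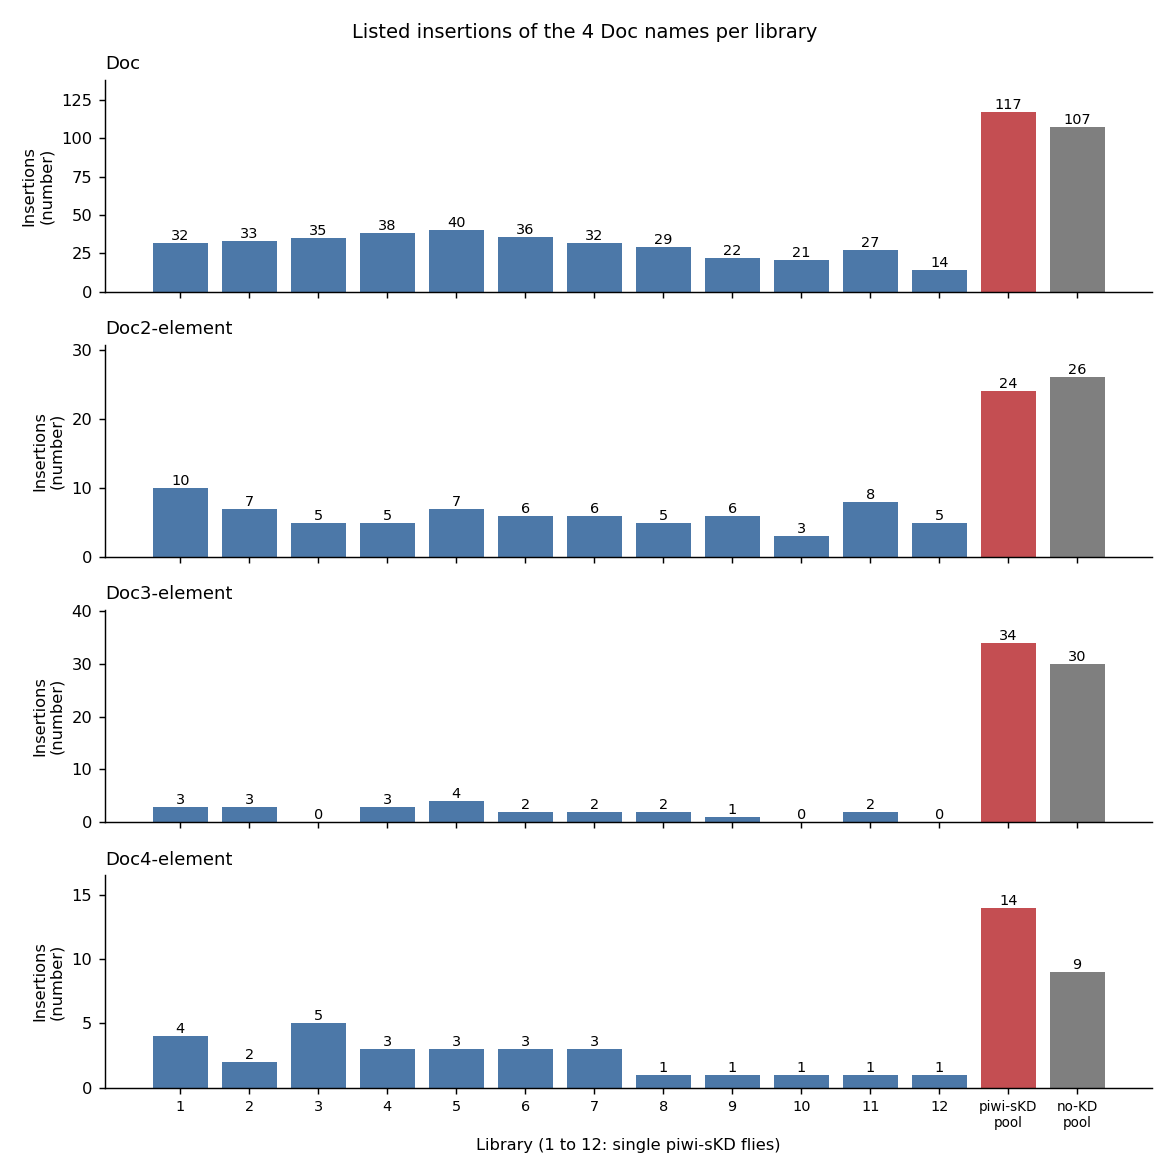
Number of listed insertions (y axes, each with its own scale from 0) of Doc, Doc2-element, Doc3-element and Doc4-element in the 12 single piwi-sKD flies (blue), the piwi-sKD pool (red) and the no-KD pool (grey). Doc reaches 117 in the piwi-sKD pool, against 107 in the no-KD pool, and Doc3 is listed 0 to 4 times per fly but 34 and 30 times in these pools.

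A listing required 2 supporting reads, and Doc insertions of the pools mostly had more. Their median was 5 reads in both pools, with the best supported Doc insertion at 51 reads in the piwi-sKD pool, against 45 in the no-KD pool. The minimum of 2 reads was met by 28.2% of the Doc insertions of the piwi-sKD pool (33 of 117) and 14% of those of the no-KD pool (15 of 107), compared with 36.1% and 33% of the insertions of all families in these pools. Doc3 was the most weakly supported name, with 50% of its piwi-sKD and 56.7% of its no-KD insertions at 2 reads and maxima of 15 and 12 reads. No test was run on these shares.

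One insertion could be listed at several nearby positions, so records of one name within 500 bp of each other were joined over all libraries into loci. This gave 204 loci, of which 101 were Doc, 42 Doc2, 47 Doc3 and 14 Doc4. Doc records clustered more than those of Doc2 or Doc3. More than 1 record lay in 55.1% of the Doc loci of the piwi-sKD pool (38 of 69), in 47.1% of those of the no-KD pool (32 of 68), and in 9.12% of the Doc detections in flies (30 of 329, a detection being a locus listed in a fly). The median span of a Doc locus was 137 bp, against 11 bp for Doc2, 2 bp for Doc3 and 8 bp for Doc4. The number of Doc loci depended on the joining distance, with 153 loci at 100 bp and 250 at 20 bp.

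The names differed in how their loci were spread over pools and flies. Loci of other families were counted only for the ratio of piwi-sKD to no-KD loci found in 1 of the pools. It was 1.75 over all families, against 1.09 for Doc, 1 for Doc2, 1 for Doc3 and 4 for Doc4. Of the 101 Doc loci, 57 were in both pools, 12 in the piwi-sKD but not the no-KD pool, 11 in the no-KD but not the piwi-sKD pool, and 21 in flies alone. At least 1 fly held 71 of them, 27 were in 6 or more flies and 4 in all 12. Among the 42 Doc2 loci, 16 were in both pools, 26 in at least 1 fly and 2 in 6 or more flies. Doc3 was mainly a pool signal, since 37 of its 47 loci were in no fly and 0 were in 6 or more flies. Of the 14 Doc4 loci, 5 were in any fly and 1 was in all 12.

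**Figure D2:**
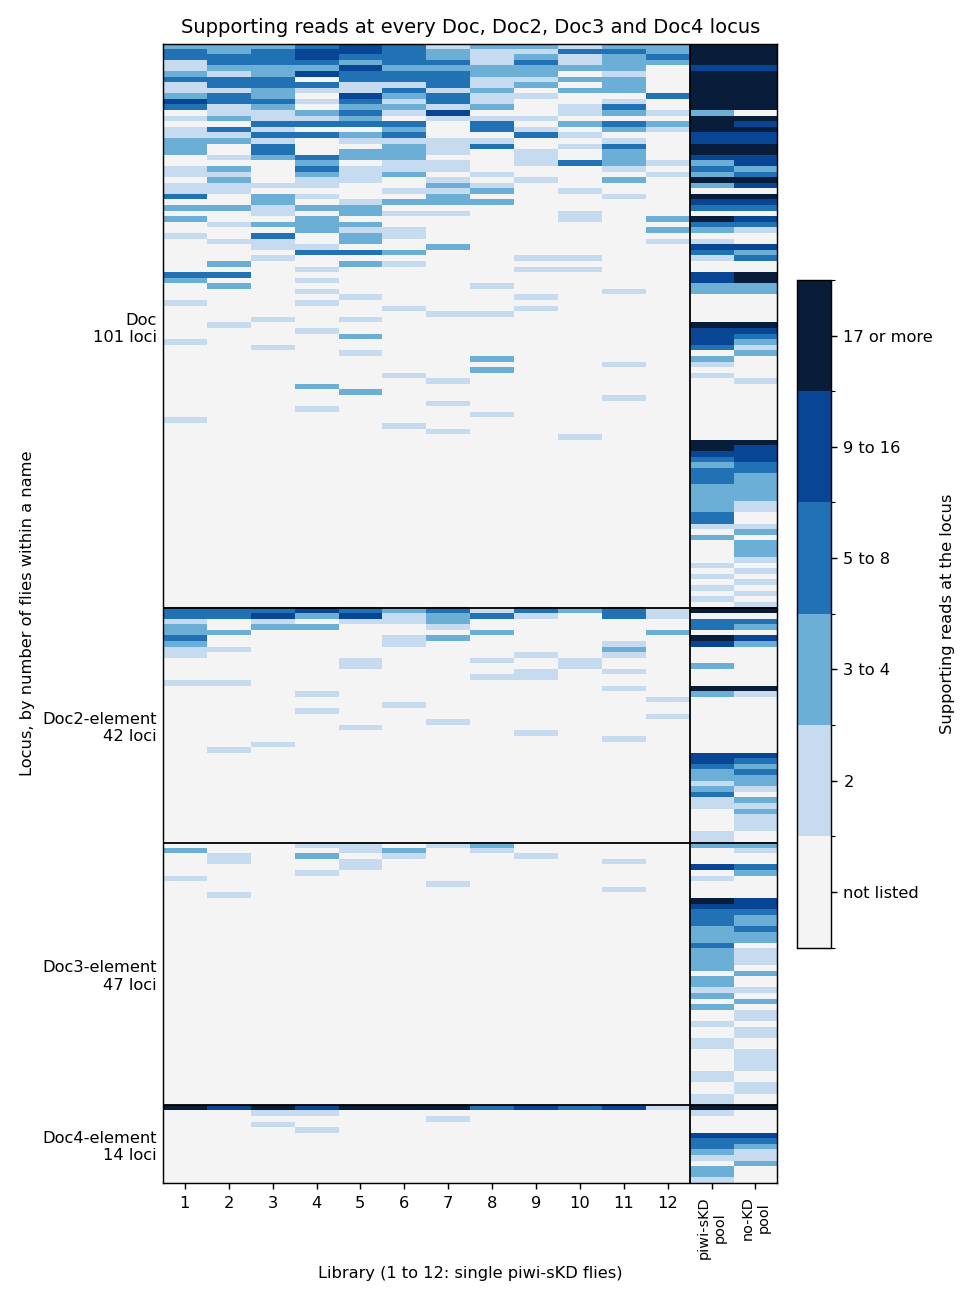
Supporting reads (colour) at each of the 204 loci (1 line each, in blocks by name, sorted by the number of flies) in the 12 single piwi-sKD flies, the piwi-sKD pool and the no-KD pool. The upper part of the Doc block is filled across flies and pools (27 loci in 6 or more flies), whereas 37 of the 47 Doc3 loci are listed in pools alone.

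The Doc loci that most flies shared were also well supported in the pools. The Doc locus at 2L 23231572 to 23232109, in no annotated gene, had 8, 4, 6, 9, 10, 7, 4, 2, 2, 5, 6 and 3 reads in flies 1 to 12, with 28 in the piwi-sKD pool, against 30 in the no-KD pool. At X 15562746 to 15563000, also outside genes, the flies had 2 reads at the lowest, 5.5 at the median and 9 at the highest, and the pools 27 (piwi-sKD) and 28 (no-KD). Both loci were thus held by every fly, and at both the reads of the pools, unadjusted for depth, were close to each other.

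The other Doc loci of all 12 flies lay on 3L. At 3L 15447753 to 15448183 the flies had 2 to 8 reads with a median of 5, the piwi-sKD pool 27 and the no-KD pool 19. At 3L 9926648 to 9926895, inside the gene bma (Dmel_CG34356, 3L 9908120 to 9967298), the flies had 2 to 12 reads with a median of 3, the piwi-sKD pool 36 and the no-KD pool 40. The Doc locus at 2L 15993976 to 15994245 came next and was listed in 11 flies but not in fly 12, with 16 reads in the piwi-sKD pool, against 12 in the no-KD pool. Of the 27 Doc loci in 6 or more flies, 25 were in both pools.

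Some of these shared Doc loci were in well studied genes. The following were chosen after their values had been seen. A Doc locus in Antp, the Hox gene of the thorax (3R 6971211 to 6971604), was in 6 flies, with 18 reads in the piwi-sKD pool, against 23 in the no-KD pool. One in opa, which encodes a pair-rule transcription factor (3R 4866287 to 4866871), was in 9 flies and had the highest support of the Doc loci in 6 or more flies in either pool, with 56 reads in the piwi-sKD pool, against 49 in the no-KD pool. One in stan, which encodes the cadherin Flamingo of planar cell polarity (2R 10675765 to 10676048), was in 7 flies, with 12 and 11 reads in these pools. In all, gene spans held 52 of the 101 Doc loci (51.5%), 23 of the 42 Doc2 loci (54.8%), 30 of the 47 Doc3 loci (63.8%) and 10 of the 14 Doc4 loci (71.4%). The gene table gave no exons, so the position within genes was not analysed here.

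Across the 57 Doc loci of both pools, reads in a pool went with the number of flies that held the locus. At loci in 6 or more flies (25 loci) the median was 23 reads in the piwi-sKD pool, against 19 in the no-KD pool. It was 10 and 8 reads at the 18 loci of 1 to 5 flies, and 4.5 and 4 reads at the 14 loci of no fly. Spearman's rho across these loci was 0.609 for the piwi-sKD pool, against 0.612 for the no-KD pool. The reads of both pools were also alike across loci, with a rho of 0.897, 30 loci higher in the piwi-sKD pool, 21 higher in the no-KD pool and 6 equal. These correlations are descriptions across 57 loci that share the same libraries and are not independent.

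**Figure D3:**
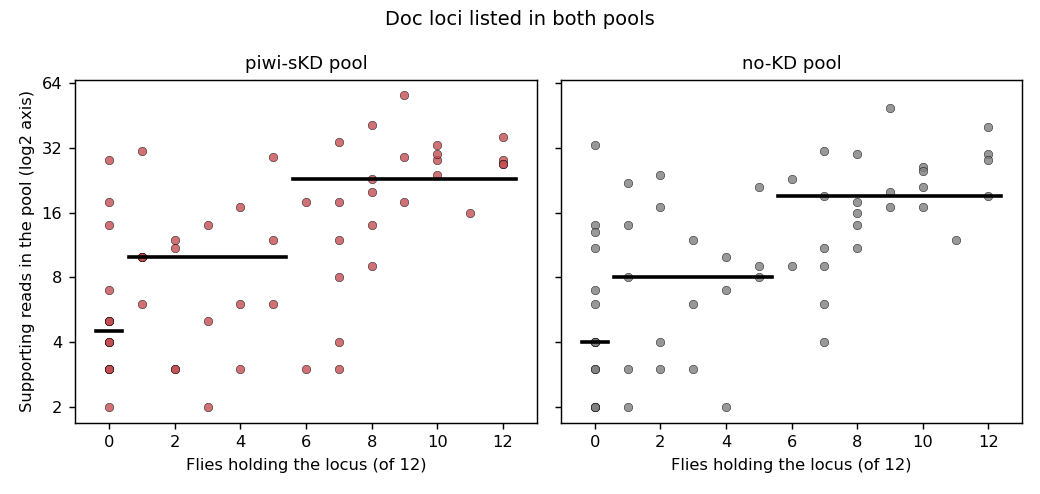
Supporting reads in the piwi-sKD pool (left, red) and the no-KD pool (right, grey) on a log2 axis, against the number of flies that held the locus, for the 57 Doc loci in both pools. Horizontal lines are medians over 0, 1 to 5 and 6 or more flies (piwi-sKD pool 4.5, 10 and 23 reads; no-KD pool 4, 8 and 19 reads), and points at 0 flies reach 28 reads (piwi-sKD) and 33 reads (no-KD).

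A well supported pool locus was not always in a fly. The Doc locus at Y 3019797 to 3019806, chosen after its values had been seen, had 28 reads in the piwi-sKD pool, against 33 in the no-KD pool, and was listed in 0 of 12 flies. Doc loci in both pools and no fly numbered 14, and there were 9 such Doc2, 12 Doc3 and 5 Doc4 loci. Doc loci found in flies alone were thinly supported, with 33 of their 42 detections at 2 reads (78.6%) and a maximum of 5 reads. At the loci of both pools, 101 of 269 Doc detections in flies were at 2 reads (37.5%), with a maximum of 12.

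The question whether Doc gained insertions in the piwi-sKD pool was put to the insertions found in 1 pool alone. A pool-specific insertion had no insertion of any name within 20 bp in the other pool. For Doc 60 insertions were specific to the piwi-sKD pool and 52 to the no-KD pool, which made a ratio of 1.15 (exact 95% interval 0.783 to 1.71), whereas the ratio over all families was 1.34. Set against all other families, this difference between the pools did not pass (Fisher's exact test, two-sided, p = 0.44, adjusted p = 1). The test called 0% of the 114 families at an adjusted p under 0.05 (0 families, with 2 at an unadjusted p under 0.05). The balance of Doc turned at a minimum of 3 reads, to 40 insertions specific to the piwi-sKD pool and 50 to the no-KD pool, a ratio of 0.8 against 1.28 over all families (p = 0.0302, adjusted p = 1).

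The rarer names did not pass either, and their intervals were wider. Doc2 had 9 specific insertions in either pool, a ratio of 1 (0.352 to 2.84). Doc3 had 24 and 21 in these pools, a ratio of 1.14 (0.61 to 2.16). Doc4 had 9 and 4, a ratio of 2.25 (0.628 to 10). For each of them Fisher's exact test gave an adjusted p of 1. At a minimum of 3 reads their ratios were 2 (6 and 3 insertions), 1.38 (11 and 8) and 5 (5 and 1), each with an adjusted p of 1. All Doc names together had 102 specific insertions in the piwi-sKD pool, against 86 in the no-KD pool, a ratio of 1.19 (0.881 to 1.6).

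Most Doc insertions that counted as specific had a Doc insertion of the other pool close by. One lay within 500 bp of 48 of the 60 Doc insertions specific to the piwi-sKD pool (80%) and of 43 of the 52 specific to the no-KD pool (82.7%). These shares were not computed for families outside the Doc names. The remaining 12 piwi-sKD and 9 no-KD Doc insertions had at most 5 and 4 reads. For Doc3 a neighbour of the same name was less usual, with 8 of 24 in the piwi-sKD pool (33.3%) and 6 of 21 in the no-KD pool (28.6%). Doc2 had such neighbours at 5 of 9 specific insertions in either pool, and Doc4 at 5 of 9 in the piwi-sKD pool and 2 of 4 in the no-KD pool.

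The highest support of a Doc name at a locus of a single library was found in the piwi-sKD pool. It was a Doc3 locus at 3L 23638870 to 23639115 with 6 reads, inside AGO3, which encodes a PIWI protein of the germline (Dmel_CG40300, 3L 23554593 to 23689640). Next were Doc at Y 2685208 and at 3R 4012154 to 4012444, with 5 reads each in the piwi-sKD pool and none listed elsewhere. A Doc2 locus at 3R 2195311 in Myo81F, a myosin gene in the heterochromatin of 3R, was level with them, also with 5 reads in that pool alone.

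Loci held by at least 3 flies but not listed in the no-KD pool were taken one by one, and there were 14, of which 7 were Doc, 5 Doc2, 2 Doc3 and 0 Doc4. Loci of the other families were not counted in this way, so whether 14 is many or few is not known. The Doc locus in most flies of these was 3L 18150547 to 18150804 in the gene CG7330 (Dmel_CG7330), with 0 to 9 reads per fly and a median of 2. It was in 9 flies, and the piwi-sKD pool had 3 reads there. At 2L 11197742 to 11197784 in Ca-beta, which encodes a calcium channel subunit (Dmel_CG42403), 6 flies had 2 or 3 reads and neither pool listed it. These were the only Doc loci in 6 or more flies that were not in both pools.

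A further Doc locus lay in the same gene Ca-beta, 2635 bp from the one of flies alone. It was at 2L 11200419 to 11200853, was held by 8 flies and had 41 reads in the piwi-sKD pool, against 30 in the no-KD pool. The Doc locus in Lar, which encodes a receptor tyrosine phosphatase of axon guidance (2L 19668452, also within the span of CG46244), was in 5 flies and neither pool. In 4 flies each were Doc loci in Myo81F (3R 816743, in neither pool), and in the homeobox gene Hmx (3R 17560331, 2 reads in the piwi-sKD pool). The other 2, at 2R 20772886 and Y 2874155, were in 3 flies and neither pool. No single no-KD flies were analysed here, and flies of one line share inherited insertions.

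Doc2 had the locus most widely held by flies and missing from the pools. At Y 124449 to 124477, in kl-5, which encodes a dynein heavy chain of the sperm tail (Dmel_CG45786, Y 22250 to 137486), the reads in flies 1 to 12 were 6, 8, 11, 4, 14, 2, 3, 5, 2, 0, 5 and 2. Neither pool listed it. It was thus in 11 of the 12 flies, and only fly 10 had no record there, while fly 10 had 13 insertions of all families on the Y. A further Doc2 locus in kl-5, at Y 132629, was in 3 flies and neither pool. By contrast, the Doc2 locus at 2R 8642694 to 8643204, outside genes, was in all 12 flies with 2 to 10 reads and a median of 5, and had 61 reads in the piwi-sKD pool, against 45 in the no-KD pool.

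The remaining Doc2 loci in most flies were less widely shared. Those at 2L 23046259 (5 flies) and at 2R 4023015 in Haspin, which encodes a histone kinase (4 flies), were in both pools. Their reads were 8 and 6 in the piwi-sKD pool, against 8 and 4 in the no-KD pool. The Doc2 loci at 2L 23512968 (4 flies), 2R 1825687 and 3R 4040479 (3 flies each) were in neither pool.

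No Doc3 locus was in more than 4 flies. The one at 4 1155106 to 1155624, within the overlapping spans of CG32017 and the kinesin gene Kif3C, was in 4 flies with 2 to 4 reads, was not listed in the piwi-sKD pool and had 2 reads in the no-KD pool. The one at 3R 1586773 in Myo81F was in 4 flies and had 3 reads in each pool. Those at 3L 27652239 (4 flies) and at 3R 2765445 in Pzl (3 flies) were in neither pool, and at the first of them Doc2 and 1731 were listed as well, so its name is uncertain. The Doc2 locus that overlaps it, at 3L 27651939 to 27652243, was in 1 fly and had 22 reads in the piwi-sKD pool, against 19 in the no-KD pool. Several Doc3 loci shared a long heterochromatic gene, with 8 loci in Myo81F, 5 in Pzl and 4 in CG17684. That in CG17684 at 2R 2092349 was in 1 fly and had 11 reads in the piwi-sKD pool, against 7 in the no-KD pool.

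Doc4 in the flies came down to 1 locus. At 2L 16856573 to 16857482 in CG31809 (Dmel_CG31809), the flies had 19, 16, 18, 10, 32, 20, 22, 7, 15, 5, 11 and 2 reads, the piwi-sKD pool 45 and the no-KD pool 32. It spanned 909 bp, the longest of the 204 loci. Every other Doc4 locus was in at most 2 flies. Those named by the rule were at 3L 25791352 (2 flies, 2 reads in the piwi-sKD pool, not listed in the no-KD pool), 2R 5291180 in d4, and 3L 25937845 and 3L 25951666 in l(3)80Fg (1 fly each, neither pool).

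The loci were then placed along the chromosomes. The centromere-proximal part was set as the 20% of each of the arms 2L, 2R, 3L, 3R and X nearest the centromere, by the coordinates listed for all families. It held 45 of the 46 Doc3 loci on these arms (97.8%), 10 of 13 Doc4 loci (76.9%), 22 of 34 Doc2 loci (64.7%) and 40 of 82 Doc loci (48.8%). In the pools, Doc3 insertions were proximal in 34 of 34 cases in the piwi-sKD pool and 29 of 29 in the no-KD pool, against 51.5% and 48.8% of the insertions of all families. The Wilson 95% interval for Doc3 started at 89.8% in the piwi-sKD pool, against 88.3% in the no-KD pool.

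The place of a Doc locus went with how many flies held it. Of the 42 Doc loci on the rest of the arms, 41 were in at least 1 fly, 19 in 6 or more, and the median was 4 flies. Of the 40 proximal Doc loci, 24 were in a fly, 6 in 6 or more, and the median was 1. The 14 Doc loci on the Y were in a fly in 3 cases and in 6 or more flies in 0. Doc3 had 8 of its 45 proximal loci in any fly. These counts are descriptions, and how well reads map in repeat-rich DNA was not tested.

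**Figure D4:**
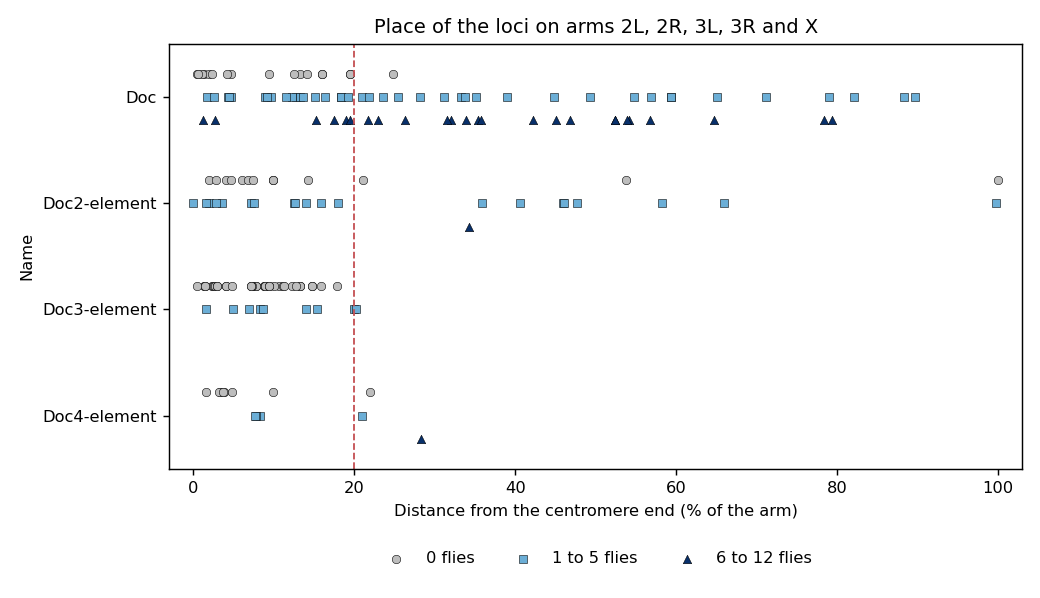
Distance of each locus from the centromere end in percent of its arm (x axis), for the 4 names on 2L, 2R, 3L, 3R and X, with the number of flies that held it (grey circles, 0 flies; blue squares, 1 to 5; dark triangles, 6 to 12). The dashed line marks 20%. Doc loci run along the arms and 41 of the 42 beyond the line are in a fly, whereas 45 of 46 Doc3 loci lie before it.

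By chromosome, 30 Doc loci were on 3R, 18 on 2R, 16 on 3L, 14 on the Y, 11 on 2L, 7 on the X, 3 on 4 and 2 on the mitochondrial genome. The 2 mitochondrial loci were listed in the piwi-sKD pool alone, with 4 and 2 reads. At both, BS and Rt1a were listed within 20 bp in the pools. The paper warns that chimeric fragments from library preparation can give false insertions, which was not tested here. The Doc loci of 2L were widely shared, with 8 of 11 in 6 or more flies. Doc2 had 8 loci each on the X and the Y, and 20 of its 73 fly records were on the Y, against 5 of 359 for Doc. Doc3 had 0 loci on the Y and 0 on 2L. In the pools 0 of 34 piwi-sKD and 0 of 30 no-KD Doc3 insertions were on the Y, which allows shares of up to 10.2% and 11.4% (upper Wilson limits), while 6.89% and 6.93% of all insertions in these pools were there.

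Whether Doc and Doc2 stood apart from the other insertions of the same fly was tested over the 12 flies, for each family with at least 3 insertions in every fly (36 families). The measure was the family's value minus that of all other insertions of the fly, with an exact sign-flip permutation test (two-sided, 4096 flips, smallest possible p 4.88e-04) and Benjamini-Hochberg adjustment over the families. Because the flies share inherited insertions, a small p says only that a difference was steady over these flies. Most families passed in most measures, so each result stands beside the share of families that passed. Doc3 and Doc4 had too few insertions per fly.

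Doc differed from the other insertions in its share on the X. Among insertions on the X, 2, 3 and 4, Doc had 2.5% on the X in the lowest fly, 6.48% at the median and 10.5% in the highest, against 18.3% to 21.9% for all other insertions, and the ranges did not overlap. The means were 6.31% ± 2.81 for Doc and 20.2% ± 1.11 for the others (SD, n = 12), a difference of -13.8 percentage points, lower in 12 of 12 flies (permutation test, adjusted p = 8.79e-04). A lower share on the X was called for 47.2% of the families. Each fly had 1 to 3 Doc insertions on the X, and the locus at X 15562746 was among them in every fly.

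The pools gave low Doc shares on the X as well. They were 7.69% in the piwi-sKD pool (8 of 104, Wilson 95% interval 3.95 to 14.4), against 6.19% in the no-KD pool (6 of 97, 2.87 to 12.8), while all insertions had 18.8% and 20% there. Several of these records can lie at 1 locus, which the intervals do not take into account. For Doc2 the flies had 0% to 33.3% on the X with a mean of 11.4%, against 19.7% for all others, and the difference of -8.35 points did not pass (adjusted p = 0.0634, permutation test). It passed without fly 3, 6 or 11 (-9.52 to -10.5 points, adjusted p = 0.0295 to 0.0478), and with at least 3 reads and at least 1 insertion per fly it was -18.7 points (adjusted p = 0.002).

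In their place along the arms, Doc and Doc2 lay on average on either side of the other insertions of a fly. The centromere-proximal share was 29.7% ± 7.52 for Doc and 38.6% ± 2.28 for all other insertions (SD, n = 12), lower in 10 of 12 flies (permutation test, adjusted p = 0.00422). A lower share was called for 55.6% of the families, so this was the usual case. For Doc2 it was 54.3% ± 15.3, against 38.2% for its others, higher in 10 of 12 flies (adjusted p = 0.00811), where a higher share was called for 25% of the families. Between the names, the difference of Doc from Doc2 was -24.6 percentage points (lower in 11 of 12 flies, permutation test, adjusted p = 0.00223 over 630 pairs of families, 82.5% of which were called). With support of at least 3 reads the difference of Doc was -5.55 points (adjusted p = 0.203), and that of Doc2, with at least 1 insertion per fly, was 2.23 points (adjusted p = 0.869).

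**Figure D5:**
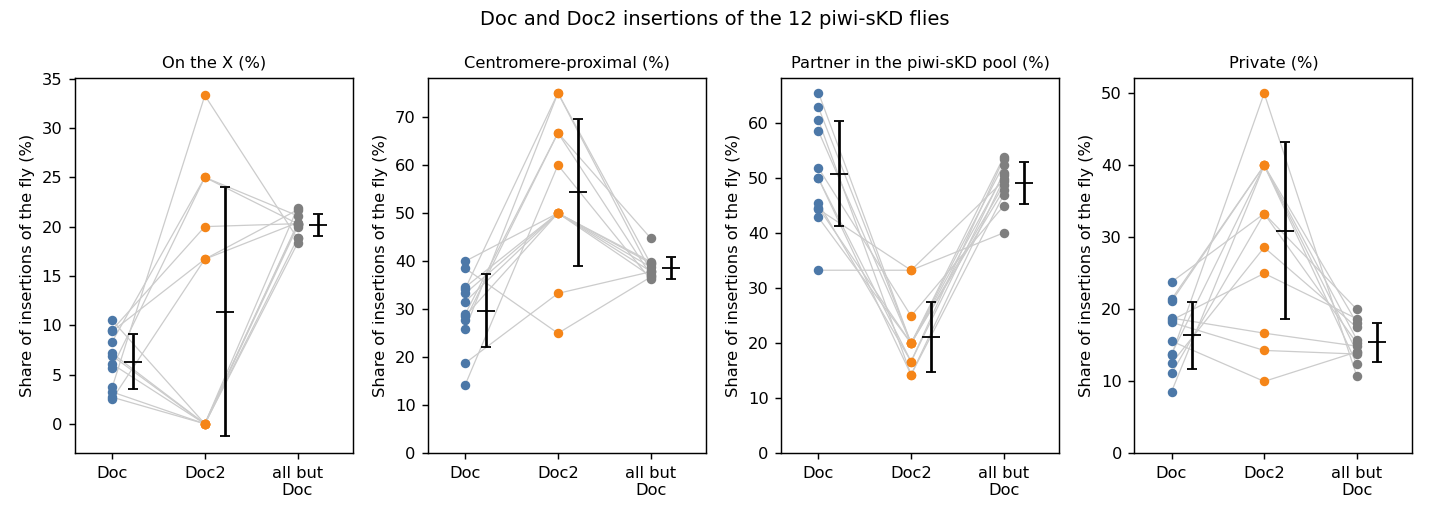
Shares (%) of Doc (blue), Doc2 (orange) and all insertions but Doc (grey) in each of the 12 piwi-sKD flies, for place on the X, centromere-proximal place, a partner within 20 bp in the piwi-sKD pool, and private insertions. Grey lines join values of a fly and black bars are mean ± SD; Doc lies under the other insertions on the X in 12 of 12 flies, and Doc2 lies under them for partners in the piwi-sKD pool in 12 of 12.

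Doc2 insertions of a fly seldom had a partner within 20 bp in the pools. Joined within 500 bp, 29 of the 71 Doc2 detections in flies were at loci of both pools, and 40 at loci of flies alone. A partner within 20 bp in the piwi-sKD pool was found for 14.3% at the lowest, 20% at the median and 33.3% at the highest of the Doc2 insertions of a fly, against 39.9% to 53.9% of all others, with no overlap. The means were 21.1% ± 6.42 and 49.4% ± 3.92 (SD, n = 12), a difference of -28.3 points, lower in 12 of 12 flies (permutation test, adjusted p = 0.00126). It was the lowest value of the 36 families, and a lower share was called for 33.3% of them. For the no-KD pool the share was 31% ± 10.5, against 47.4% ± 2.89 for all others (lower in 11 of 12 flies, permutation test, adjusted p = 0.00251, lower called for 33.3% of families).

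These values moved with the Y and with the support. Without insertions on the Y, an alternative chosen with the data in view, the Doc2 difference was -23.2 points for the piwi-sKD pool (adjusted p = 0.00122) and -6.4 points for the no-KD pool (adjusted p = 0.212, permutation test). With support of at least 3 reads and at least 1 insertion per fly, it was -10.3 points (adjusted p = 0.416) and -7.46 points (adjusted p = 0.594).

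Doc did not pass in these measures at the settings used throughout, but it did under some alternatives. Of the Doc insertions of a fly, 50.9% ± 9.53 had a partner in the piwi-sKD pool, against 49.2% ± 3.88 for all others (adjusted p = 0.607), and 52.9% ± 8.2 had one in the no-KD pool, against 47.1% ± 2.93 (adjusted p = 0.073; permutation tests, n = 12). With at least 3 reads the differences were 9.73 points (adjusted p = 0.014) for the piwi-sKD pool and 13.9 points (adjusted p = 0.00385) for the no-KD pool. With records merged within 500 bp in a fly they were 5.98 points (adjusted p = 0.0293) and 6.88 points (adjusted p = 0.0148) for these pools. The difference for the no-KD pool also passed at a window of 100 bp (5.44 points, adjusted p = 0.0286), without the Y (6.2, 0.0372), without the 3 flies with the fewest insertions (8.54, 0.0203), without fly 9 (7.22, 0.0223) and without fly 10 (6.67, 0.0474).

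The names were also set against each other for their pool partners. Doc was 29.7 points above Doc2 for the piwi-sKD pool (higher in 11 of 12 flies, adjusted p = 0.00244, with 67.9% of pairs called) and 21.8 points above it for the no-KD pool (higher in 12 of 12 flies, adjusted p = 0.00184, with 64% of pairs called).

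Private insertions had no partner within 20 bp in another fly or in the no-KD pool, and new insertions would be sought among them. Doc had 57 over all flies, 3 to 8 per fly with a median of 5, and 41 of the 57 had 2 reads, with a maximum of 4. They made up 16.4% ± 4.62 of the Doc insertions of a fly, against 15.4% ± 2.7 of all others (SD, n = 12, permutation test, adjusted p = 0.639). The sign turned with the window, to -3.73 points at 100 bp (adjusted p = 0.0156, permutation test) and -2.88 points at 500 bp (adjusted p = 0.0117). Joined within 500 bp, only 21 Doc loci were in 1 fly, 11 of them in neither pool. Some of the 57 thus lay at a Doc locus that other flies held too.

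Doc2 had a higher private share on few insertions. Its 21 private insertions, 1 to 3 per fly, made up 30.9% ± 12.3 of the Doc2 insertions of a fly, against 15.4% ± 2.68 (higher in 11 of 12 flies, permutation test, adjusted p = 0.00676). A higher share was called for 11.1% of the families. Joined within 500 bp, 12 Doc2 loci were in 1 fly, 10 of them in neither pool. Of the 21 insertions, 20 had 2 reads, and with support of at least 3 reads and at least 1 insertion per fly the difference was -3.52 points (adjusted p = 0.472). The difference of Doc from Doc2 was -14.5 points (adjusted p = 0.0266, with 29.8% of pairs called), and this call was lost without fly 4, 5, 8 or 10, with adjusted p up to 0.0743. Doc3 had 6 private insertions and Doc4 had 4, all with 2 reads.

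Support, sharing and gene spans were compared in the same way. The mean of log2 reads per insertion was 1.48 ± 0.166 for Doc and 1.6 ± 0.101 for all others, a difference of -0.12, lower in 10 of 12 flies (adjusted p = 0.00469, permutation test), and a lower mean was called for 36.1% of families. A Doc insertion of a fly was shared by 5.23 ± 0.546 flies on average, against 5.23 ± 0.385 for all others (adjusted p = 0.991). For Doc2 the mean was 4.71 ± 0.579 flies, against 5.23 ± 0.383 (adjusted p = 0.0321, where a lower mean was called for 13.9% of families), and this call was lost without fly 4, 5, 6, 7 or 10, with adjusted p up to 0.219. With at least 3 reads and at least 1 insertion per fly the direction turned, to 1.17 flies above the others (adjusted p = 0.146), whereas the difference was -1.05 flies without the Y (adjusted p = 0.00488). The difference of Doc from Doc2 was 0.518 flies (adjusted p = 0.0602), 1.09 without the Y (adjusted p = 0.00732) and 0.657 without the 3 flies with the fewest insertions (adjusted p = 0.045), and it passed without fly 4 or 12 as well (0.611 and 0.591 flies).

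Gene spans held 59.9% ± 5.57 of the Doc insertions of a fly, against 56.1% ± 1.34 of all others (adjusted p = 0.0797), and 46.5% ± 18.2 of the Doc2 insertions, against 56.3% ± 1.17 (adjusted p = 0.108; permutation tests, n = 12). For Doc2 the difference of -9.76 points became -21.2 without the Y (adjusted p = 0.0141), -24.1 with at least 3 reads and at least 1 insertion per fly (adjusted p = 0.028) and -12.9 without fly 4 (adjusted p = 0.0336). For Doc it was 4.44 points without the Y (adjusted p = 0.0409) and 4.95 without fly 8 (adjusted p = 0.0197), and it turned to -5.09 points with at least 3 reads (adjusted p = 0.0808). Doc was 13.4 points above Doc2 (adjusted p = 0.0467, with 64.9% of pairs called). That call was lost without any one of 9 of the 12 flies, all but flies 3, 4 and 9, with differences from 10.6 to 16.1 points over all such repeats. Without the Y it was 25.3 points (adjusted p = 0.00381).

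Among the other LINE families of a list set by name, 31 were found and 13 had enough insertions per fly. A share on the X below that of the other insertions was called for 7 of the 13 and a higher one for 5. The centromere-proximal share was higher in 5 and lower in 5. A lower share of partners in the piwi-sKD pool was called for 6 and a higher one for 2. Low X shares and rare pool partners were thus found in other LINEs as well as in Doc and Doc2.

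The name Doc was not always given to an insertion in every library. Within 20 bp, in the same library or any other, 89 of the 583 Doc records (15.3%) had a record of another family. These were mostly F-element (46 records) and Rt1a (30), which are LINEs too, and hopper (12), a DNA transposon. Of the 123 Doc2 records 5 had one, of the 86 Doc3 records 6, and of the 51 Doc4 records 0. At 2L 10174692 to 10174993 in CG44153, chosen after its values had been seen, Doc was in 8 flies and had 9 reads in the piwi-sKD pool, against 11 in the no-KD pool, and the pools listed F-element or Rt1a there too. Counting F-element and Rt1a records at the 101 Doc loci added 5 fly detections at 5 loci.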

How the data were processed

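The authors mapped paired-end reads to dm6 with BWA (the submitters' notes name versions 0.7.5a-r405 and 0.7.10-r789) and used T-lex de novo to call insertions that the reference lacks. Support as deposited is a read count of at least 2 in all lists but that of the no-KD pool. The deposited no-KD values are a signal, scaled by the authors: 100% of them are whole multiples of 1.23 (tolerance 1e-06), and they were divided by 1.23. That factor was read from the values, and the ratio of the coverages that the methods give for the pools (piwi-sKD over no-KD) rounds to it. The piwi-sKD pool entered without the authors' subsampling. Coordinates are those of the lists, in dm6, and may be off by 1 base because their counting is not stated. Gene spans came from the RefSeq table of 17872 genes, which has no exons. No genome sequence was used here.

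Partners lay within 20 bp, whatever their name, and loci joined records of one name within 500 bp. Pool-specific insertions were compared by Fisher's exact test for families with at least 5 of them, and the flies by sign-flip permutation. Intervals are exact (ratios) or Wilson (shares), at 95%. Both tests were tested on simulated data. The loci named are the 5 in most flies for each name, each locus of 3 or more flies that the no-KD pool lacks, and the 3 loci of a single library with the highest support. Members and lists were chosen with earlier results of these data known. Alternatives were other windows, joining distances, minimum support, minimum insertions, merging, chromosome arms only and leaving out flies. Python 3.11.15, numpy 2.4.6, pandas 2.3.3, scipy 1.17.1 and matplotlib 3.10.9 were used.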

Additional observations from a re-analysis of the deposited data

How the results depend on the processing

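The counting of F-element and Rt1a, the omission of the Y, the omission of the 3 flies with the fewest insertions, and the joint setting of at least 3 reads with at least 1 insertion per fly were chosen after seeing the data. Of 760 values recomputed under alternatives, 655 were classed as unchanged, and the cause of the other changes was not tested. For differences and ratios, unchanged meant the same direction and the same side of the threshold. Counts of families called and of loci have neither, and for them it meant only a change within a set factor. The fall from 101 Doc loci to 73 at a minimum of 3 reads was thus classed as unchanged. Doc loci numbered 250 when joined at 20 bp and 153 at 100 bp. At a minimum of 3 reads, the pool-specific ratio was 2 for Doc2 and 1.38 for Doc3, both above the 1.28 of all families (adjusted p = 1 for each, Fisher's exact test) where they had been below it, and that of Doc was 0.8, and the Doc differences were -5.55 points for the centromere-proximal share and -5.09 for gene spans. With at least 1 insertion per fly as well, Doc2 differences were -7.46 points (no-KD partner), -10.3 (piwi-sKD partner), -3.52 (private), 2.23 (centromere-proximal) and 1.17 flies (sharing). Without the Y, Doc2 had -6.4 points for the no-KD partner and Doc 0.0426 flies. With insertions merged within 500 bp in a fly, Doc had -0.717 points (private) and 0.177 flies; with a partner window of 100 bp -3.73 points (private), and of 500 bp -2.88 points and 0.157 flies. Without the 3 flies, Doc had 0.234 flies, Doc2 12 points (private, adjusted p = 0.0879), and Doc minus Doc2 was -11.5 points (private, adjusted p = 0.157), 16.1 points (gene spans, adjusted p = 0.0712) and -0.00157 (log2 reads). With families of at least 1 insertion per fly, Doc minus Doc2 was -14.5 points (private, adjusted p = 0.06).

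Leaving out 1 fly at a time, Doc minus Doc2 ranged from -18.2 to -11.5 points (private), 10.6 to 16.1 (gene spans) and -0.00606 to 0.0566 (log2 reads), Doc2 sharing from -0.59 to -0.263 flies and Doc sharing from -0.104 to 0.155. The X share of Doc stayed between -14.2 and -13.4 points. Families called moved by over 1.5 times with at least 1 insertion per fly (X 51 of 68, centromere-proximal 54 of 66, gene spans 42, sharing 31, log2 reads 38, partners 41 in the no-KD and 40 in the piwi-sKD pool, each of 69) against 27, 29, 25, 19, 22, 24 and 25 of 36. With at least 5 insertions the no-KD partner gave 15 of 24. With at least 3 reads, which leaves 21 families, calls were 16 (centromere-proximal), 14 (gene spans), 12 (sharing), 11 (log2 reads), 10 (no-KD partner), 16 (piwi-sKD partner) and 5 (private, against 20), and 7 of 45 for private with at least 1 insertion. After merging, 16 of 35 families were called for the share at 2 reads, against 10. With at least 3 reads the loci were 20 (Doc2), 21 (Doc3) and 6 (Doc4), with 10 Doc loci in 6 or more flies and 8 in flies alone; at 20 bp Doc4 had 23 loci and 85 Doc loci were in flies alone. Exonic position was not run. No paired analysis was possible because the groups share fewer than 2 replicate numbers, with 1 library for each pool. The tests over flies set families against each other within a fly. Most private Doc insertions had the minimum of 2 reads, which limits every count of them.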
